A study of Mus musculus with 34 samples.

Results

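Peaks of HDAC3, PROX1 and HNF4α in mouse liver were examined at 10 genes of blood coagulation: the factor genes *F2*, *F5*, *F7*, *F10* and *F11*, the fibrinogen chain genes *Fga*, *Fgb* and *Fgg*, and the anticoagulant genes *Serpinc1* and *Proc*. They are 10 of the 22380 protein-coding genes of the annotation. A gene's window began 50 kb before the transcription start site (TSS) and ran on 2 kb beyond the gene's end, and every peak centred in a window was assigned to that gene. An HDAC3 or PROX1 peak was called co-bound when the same coordinates stood in both peak lists, and otherwise PROX1-only or HDAC3-only. Such a peak was counted as having HNF4α when a single HNF4α peak covered at least 50% of it. The windows held 51 of the 28631 HDAC3 or PROX1 peaks and 46 of the 24253 HNF4α peaks.

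The peaks come from ChIP-seq, which sequences the DNA that an antibody pulls down together with the protein bound to it. All livers were from male mice of strain C57B/6, aged 10 weeks and collected at zeitgeber time 10, that is 10 h after lights on. HDAC3 and PROX1 were each mapped in 3 control libraries, and HNF4α in 2 libraries labelled HNF4A_floxed. By the methods, the floxed control animals carried loxP sites in *Hnf4α* without Cre and had received an AAV8 virus expressing *Egfp* from the TBG promoter, which is active in hepatocytes. The HNF4α peaks therefore come from other animals than the HDAC3 and PROX1 peaks. The authors pooled the libraries of each factor before calling peaks, so there are no replicate values, no spread between livers and no test between groups. The lists hold no read counts, so the depth is unknown, and they hold no expression, so the tissue label was not checked against marker genes. A gene without a peak is one at which no peak passed the limits of the lists. By the methods, the second factor at a co-bound peak had to reach a lower minimum signal than the first.

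Coagulation is a cascade of serine proteases, most of which are made by hepatocytes and secreted into blood as inactive precursors. Tissue factor and factor VII start it, factors XI, X and V amplify it, and thrombin, the product of *F2*, turns fibrinogen into fibrin. Antithrombin and protein C hold it back. HNF4α is a nuclear receptor that binds many genes of differentiated hepatocytes, including coagulation genes. PROX1 is a homeodomain protein, and HDAC3 is the histone deacetylase of nuclear receptor corepressor complexes.

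Sequences of 8 peaks are shown first, since the promoters differ in whether HNF4α lies with the corepressors. They are from the mm9 assembly, on the strand of the gene, and promoter peaks that reach past the TSS end at the base before it. Capitals mark matches to 4 motifs, searched on both strands: the HNF4 motif CAAAGTCCA with at most 1 mismatch, the DR1 motif CAAAGGTCA of nuclear receptors with at most 1 mismatch, the C/EBP motif TTGCNNAA, and the HNF1 motif, which is GTTAAT followed by ATTAAC 1 base apart, with at most 2 mismatches. The HNF4 and DR1 motifs differ at 2 letters, so a 9-letter run such as CAAAGTTCA matches both. The DR1 motif was added after the sequences had been seen. The 8 are a selection, and each holds a match to at least 1 motif. Some promoter peaks that are not printed hold none of the 4 motifs. They include the co-bound peaks of *F2* (-765 bp), *F10* (-496 bp) and *Serpinc1* (-179 bp) and the HDAC3-only peak of *F10* (-803 bp). The HNF4α peaks among them are those of *F2* (-740 bp), *F5* (-216 bp), *F10* (-48 and 498 bp) and *F11* (-104 bp).
F2 co-bound promoter peak, chr2:91476572-91476760, reverse strand: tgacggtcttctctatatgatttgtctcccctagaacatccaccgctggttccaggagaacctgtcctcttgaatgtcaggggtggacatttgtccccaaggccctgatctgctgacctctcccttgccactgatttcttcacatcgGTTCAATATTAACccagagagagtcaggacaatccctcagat
F11 co-bound promoter peak, chr8:46347386-46347584, reverse strand: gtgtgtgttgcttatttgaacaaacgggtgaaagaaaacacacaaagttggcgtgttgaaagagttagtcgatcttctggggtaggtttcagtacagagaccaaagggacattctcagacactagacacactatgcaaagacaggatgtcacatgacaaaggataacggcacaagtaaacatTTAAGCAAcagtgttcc
Fga co-bound promoter peak, chr3:82829822-82830021, forward strand: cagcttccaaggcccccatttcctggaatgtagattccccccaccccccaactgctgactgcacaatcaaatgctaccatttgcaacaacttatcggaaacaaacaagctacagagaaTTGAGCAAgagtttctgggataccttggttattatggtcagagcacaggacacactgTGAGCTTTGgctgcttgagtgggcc
Fgb co-bound promoter peak, chr3:82853727-82853926, reverse strand: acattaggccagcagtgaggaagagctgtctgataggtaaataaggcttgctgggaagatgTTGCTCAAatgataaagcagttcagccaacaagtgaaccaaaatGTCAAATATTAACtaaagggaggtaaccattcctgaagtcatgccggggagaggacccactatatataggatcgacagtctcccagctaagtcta
F5 co-bound intron peak, chr1:166093021-166093220, forward strand: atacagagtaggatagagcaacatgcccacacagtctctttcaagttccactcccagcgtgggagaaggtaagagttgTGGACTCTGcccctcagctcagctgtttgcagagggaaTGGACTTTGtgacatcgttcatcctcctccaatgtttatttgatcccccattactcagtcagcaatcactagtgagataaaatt
Fgg co-bound intron peak, chr3:82813691-82813890, forward strand: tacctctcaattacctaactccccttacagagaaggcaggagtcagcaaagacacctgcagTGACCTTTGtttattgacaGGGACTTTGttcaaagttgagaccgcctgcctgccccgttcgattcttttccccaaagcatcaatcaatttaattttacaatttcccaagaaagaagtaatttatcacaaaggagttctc
F7 HNF4α promoter peak, chr8:13025947-13026033, forward strand: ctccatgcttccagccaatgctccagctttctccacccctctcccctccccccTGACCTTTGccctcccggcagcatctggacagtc
Serpinc1 HNF4α promoter peak, chr1:162908626-162908736, forward strand: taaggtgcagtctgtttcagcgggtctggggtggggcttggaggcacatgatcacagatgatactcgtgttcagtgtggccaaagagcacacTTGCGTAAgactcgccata

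The windows of all 10 genes held at least 1 co-bound peak, against 38.4% of all protein-coding genes and 42.1% of the 11475 genes whose windows were as long as those of the 10 genes. The only co-bound peak of *F7* is the one at -496 bp in the *F10* promoter. Assigned by the nearest TSS within 100 kb, *F7* had 0. In 8 of the 10, at least 1 co-bound peak had HNF4α, against 31.1% of all genes and 34.1% of genes of like window length. The exceptions were *F7* and *F10*, whose windows held HNF4α peaks but no co-bound peak with HNF4α. That pattern was found in 18.6% of all genes and 21.4% of those of like window length. Over the 10 genes the median number of co-bound peaks was 4 and of those with HNF4α 2.5, while both medians were 0 over all protein-coding genes. Counted once, the co-bound peaks numbered 40, and 25 of them had HNF4α. That share of 62.5% (95% Wilson interval 47.0 to 75.8) lay next to the 61.3% of all 20039 co-bound peaks. The 10 genes thus had more co-bound peaks than the median gene, while the share of those peaks with HNF4α was close to that of the whole list. Intervals cover counting error only, and neighbouring peaks are not independent.

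**Figure D1:**
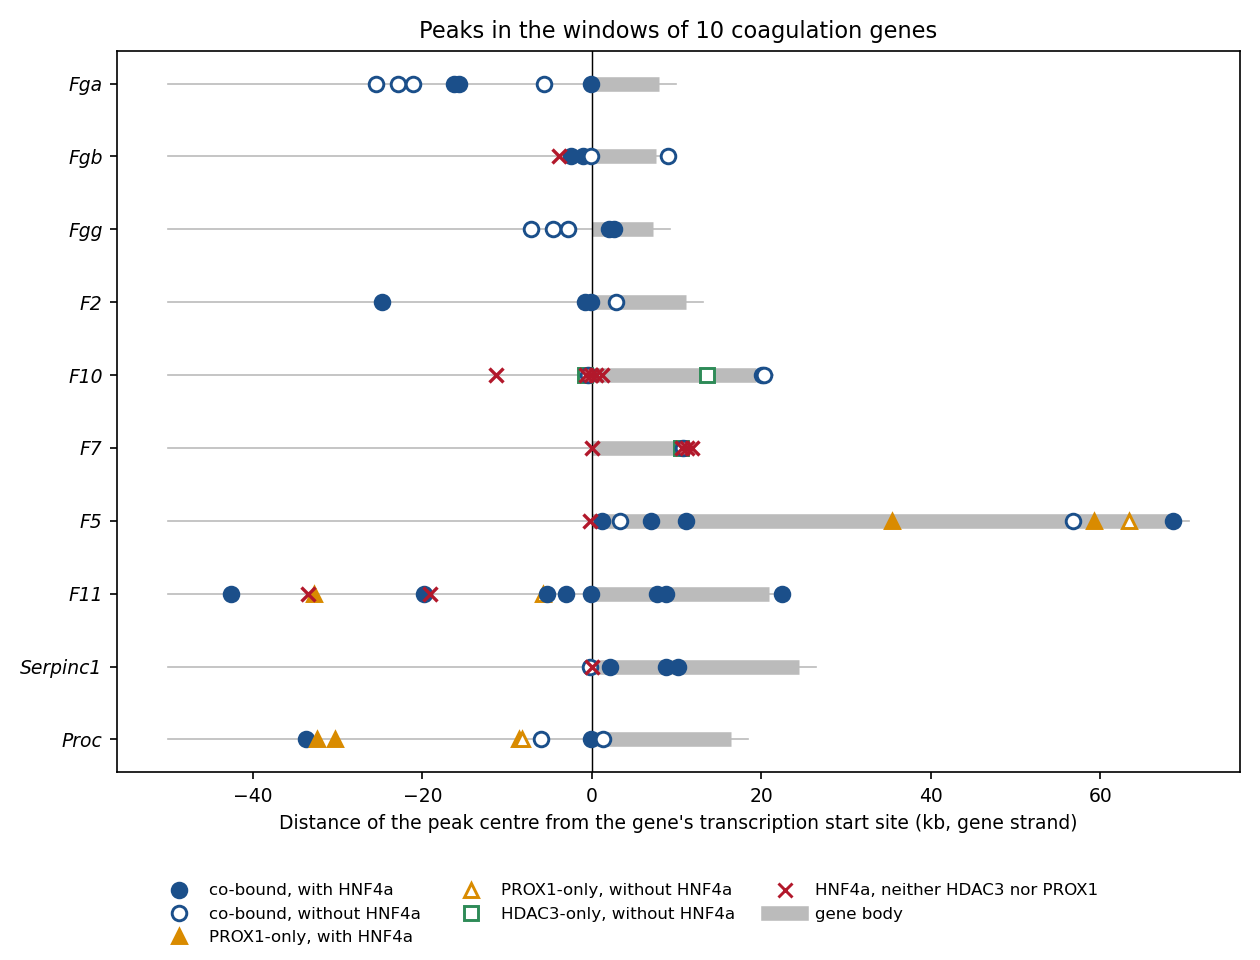
Peaks in the window of each gene, placed by the distance of their centres from the TSS in kb along the gene strand, with the gene body as a thick grey bar. Filled symbols are peaks with HNF4α, open symbols peaks without, and crosses HNF4α peaks with neither HDAC3 nor PROX1. All 8 co-bound peaks of *F11* are filled and none of those of *F7* and *F10*, and several symbols overlap near the TSS.

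The promoters, taken as 1 kb to either side of the TSS, stood further from the background than the windows did. A co-bound peak was centred in the promoter of 7 of the 10 genes, against 5.05% of all genes and 6.22% of those of like window length. In 4 of them (*F2*, *F11*, *Fga* and *Proc*) it had HNF4α, against 2.91% and 3.65%. An HNF4α peak of any kind was centred in 8 of the 10 promoters, against 9.38% and 11.8%. The genes without one were *Fgb* and *Fgg*. In all, 8 co-bound peaks and 11 HNF4α peaks were centred in the promoters. Of these HNF4α peaks, 6 were with neither HDAC3 nor PROX1, meaning that a peak of those lists covered less than 50% of them. The *F10* promoter held 3 of the 6. The share with neither among the promoter HNF4α peaks of all genes was not counted. The promoters fell into 5 kinds. Co-bound peak and HNF4α peak coincided at *F2*, *F11*, *Fga* and *Proc*. Both were present but centred apart at *Serpinc1* and *F10*, with a small overlap at *Serpinc1*. *Fgb* had a co-bound peak only, and *F5* and *F7* an HNF4α peak only. *Fgg* had no peak of the 3 lists within 1 kb of its TSS. This sorting depends on the limit of 1 kb. Not far beyond it, co-bound peaks with HNF4α were centred at -1065 bp at *Fgb* and at 1230 bp at *F5*.

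**Figure D2:**
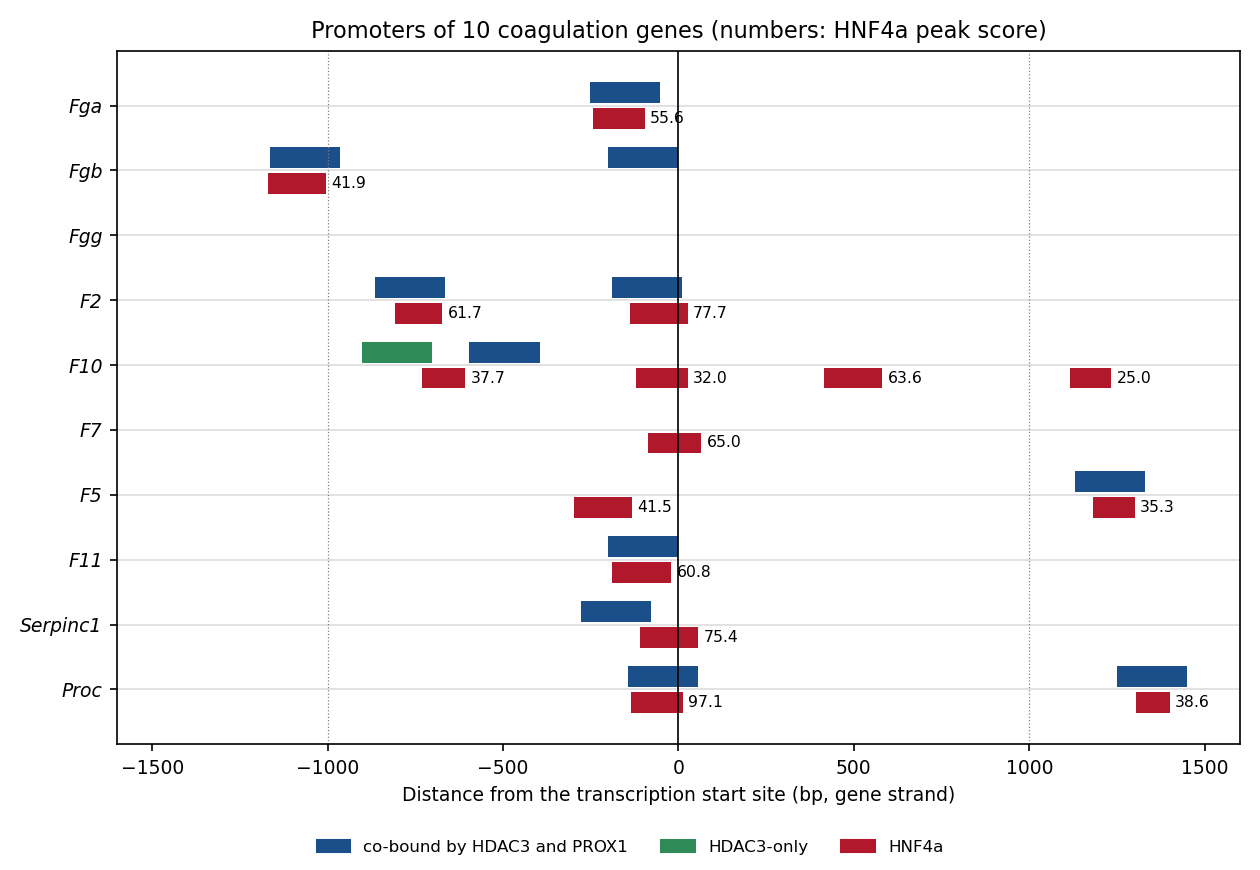
HDAC3 or PROX1 peaks (upper bar of each gene) and HNF4α peaks (lower bar, with its score) by distance from the TSS in bp along the gene strand. Bars have the width of the peaks, and dotted lines mark 1 kb to either side. Between the dotted lines, blue and red bars stand at the same place at *F2*, *F11*, *Fga* and *Proc*. They overlap only in small part at *Serpinc1* and lie apart at *F10*. Beyond the dotted lines they also coincide at *Fgb* (-1065 bp), *F5* (1230 bp) and *Proc* (1351 bp).

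The 3 fibrinogen chain genes lie together on chromosome 3 of mm9. *Fgg*, which encodes the gamma chain, spans 82811781 to 82818975 on the forward strand. *Fga*, for the alpha chain, spans 82830075 to 82838036 on the same strand. *Fgb*, for the beta chain, spans 82846169 to 82853725 on the reverse strand and so points towards the other two. Because *Fgg* lies within the 50 kb upstream of *Fga*, all 5 co-bound peaks of *Fgg* are also counted for *Fga*.

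At *Fga*, 3 of the 7 co-bound peaks had HNF4α. Its promoter peak, centred at -153 bp, was 74% covered by an HNF4α peak with a score of 55.6. The score is the authors' HOMER score, on which a higher value stands for a stronger peak, and its median over the whole list was 41.9. A second peak private to *Fga*, at -5607 bp, was 47.5% covered by an HNF4α peak with a score of 81, so it lay just under the limit of 50%. The promoter sequence printed above holds a C/EBP match at -132 bp and a DR1 match at -74 bp.

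At *Fgg*, 2 of the 5 co-bound peaks had HNF4α. Both lie inside the gene, one at 2010 bp in an intron with a score of 85.3 and the other at 2634 bp in a coding exon with a score of 74.9. The first holds, in the sequence above, a DR1 match without mismatch at 1975 bp and an HNF4 match with 1 mismatch at 1994 bp. The remaining 3 peaks lie upstream at -7187, -4600 and -2781 bp, and only the one at -4600 bp was touched by an HNF4α peak, over 44% of its length. The HNF4α peak at that place, centred at -4598 bp, had a score of 56.5, and it is the third HNF4α peak of the window.

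At *Fgb*, 2 of the 4 co-bound peaks had HNF4α. The peaks at -2513 and -1065 bp were 79% and 80% covered, by HNF4α peaks with scores of 46.2 and 41.9. The promoter peak at -102 bp was not touched by any HNF4α peak. Its sequence holds a C/EBP match at -136 bp and an HNF1 match at -90 bp, and no HNF4 or DR1 match. The remaining peak, at 9011 bp, lies past the end of the gene, towards *Fga*. Beyond it, and outside the windows of both genes, stood 2 more co-bound peaks whose nearest TSS is that of *Fgb*, both with HNF4α. They are centred 9.88 and 10.7 kb downstream of the *Fgb* TSS, with HNF4α scores of 105.5 and 70.2. The interval between *Fga* and *Fgb* therefore held a higher HNF4α score than any peak assigned to the 3 fibrinogen genes.

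*F2*, which encodes prothrombin, spans 91465477 to 91476571 of chromosome 2 on the reverse strand. HNF4α was at 3 of its 4 co-bound peaks. The pair in the promoter, at -90 and -765 bp, were 73.5% and 67% covered, by HNF4α peaks with scores of 77.7 and 61.7. *F2* was the one gene of the 10 with 2 such peaks in its promoter. The peak at -90 bp has an HNF1 match at -36 bp and none of the other 3 motifs. The third peak with HNF4α, at -24.8 kb, has a score of 47.6 and an HNF4 match without mismatch, and it lies in an intron of *Arhgap1*, whose TSS is nearer. The peak at 2842 bp, in an intron of *F2*, was not touched by HNF4α. All 3 HNF4α peaks of the window lay with a co-bound peak.

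*F7* and *F10* encode vitamin K-dependent proteases and are neighbours on the forward strand of chromosome 8, *F7* from 13026034 to 13035809 and *F10* from 13037308 to 13056676. *F7* had 1 co-bound peak and *F10* had 3, and none of them was touched by an HNF4α peak. The 1 of *F7* lies past its end and is also the co-bound peak in the promoter of *F10*, whose TSS is nearer. *F7* had 4 HNF4α peaks and *F10* had 5, and all of them were with neither HDAC3 nor PROX1. The windows share 4 of those HNF4α peaks and 2 HDAC3 or PROX1 peaks, so the genes are not independent examples. At *F7* an HNF4α peak with a score of 65 was centred at -11 bp. The sequence above shows a DR1 match without mismatch in it, at -30 bp. The nearest HDAC3 or PROX1 peak was centred 10482 bp away.

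In the promoter of *F10* the HNF4α peaks were centred at -670, -48 and 498 bp, with scores of 37.7, 32 and 63.6, the last in a coding exon. Between the first and the second lay the co-bound peak, at -496 bp, and 133 bp upstream of the first lay an HDAC3-only peak at -803 bp. That HDAC3-only peak was 14.5% covered by HNF4α. The second HDAC3-only peak of the window, at 13.6 kb in an intron, has 2 HNF4 matches but no HNF4α peak. These were the HDAC3-only peaks of all 10 genes, and neither had HNF4α. Of the 1208 HDAC3-only peaks in the list, 14.0% had it. The other 2 co-bound peaks of *F10*, at 20056 and 20323 bp, lie past its end and nearer to *Proz*, which encodes protein Z. The one at 20323 bp holds an HNF4 match without mismatch and was not touched by an HNF4α peak. Before the TSS of *F10*, HDAC3 or co-bound peaks and HNF4α peaks thus alternated within 1 kb.

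*F11*, which encodes factor XI, spans 46326524 to 46347385 of chromosome 8 on the reverse strand. It was the gene with the most peaks of the 10, with 8 co-bound peaks, 2 PROX1-only peaks and 11 HNF4α peaks. All 8 co-bound peaks had HNF4α. The promoter peak, at -100 bp, was 84% covered by an HNF4α peak with a score of 60.8. Its sequence has a C/EBP match at -14 bp. Peaks at -5293 and -3020 bp upstream had scores of 33 and 40.5. Inside the gene the peaks at 7677 and 8722 bp had scores of 35.3 and 96.6, and past its end the peak at 22.5 kb had a score of 96.6 and an HNF4 match without mismatch. The upstream part of the window covers *Klkb1*, which encodes plasma prekallikrein, the contact factor that acts beside factor XI. A co-bound peak in a *Klkb1* intron at -19.8 kb from the *F11* TSS carried the highest HNF4α score of all 10 genes, 112.6, above 98.4% of the HNF4α list. The co-bound peak at -42.6 kb, with a score of 79.2, lies nearer to the TSS of *Klkb1*. So does the PROX1-only peak at -32.8 kb, which also had HNF4α. By the same window rule, the co-bound peaks at -19.8 and -42.6 kb, the first with the highest score, are also counted for *Klkb1*.

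*F5*, which encodes the cofactor of factor Xa, spans 166081969 to 166150408 of chromosome 1 on the forward strand. At 120.4 kb its window was the longest of the 10. HNF4α was at 4 of its 6 co-bound peaks and at 2 of its 3 PROX1-only peaks, and the window held 8 HNF4α peaks. None of the co-bound peaks was in the promoter, where an HNF4α peak with a score of 41.5 was centred at -216 bp, 1446 bp from the nearest HDAC3 or PROX1 peak. The co-bound peaks with HNF4α nearest to the TSS stood in introns at 1230, 6922 and 11152 bp, with scores of 35.3, 42.9 and 105.5. The score of the last was above 97.4% of the list. Its sequence, printed above, holds an HNF4 match without mismatch and another with 1 mismatch, at 11172 and 11134 bp. The co-bound peak at 68.6 kb, just past the end of the gene, had a score of 28.3. The PROX1-only peaks stood far into the gene, at 35.4, 59.3 and 63.4 kb, and the first of them holds 3 HNF4 matches, 2 of which overlap. From 56.8 kb on, the peaks lie nearer to the TSS of *Slc19a2* than to that of *F5*.

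*Serpinc1*, which encodes antithrombin, the main inhibitor of thrombin and factor Xa, spans 162908737 to 162933141 of chromosome 1 on the forward strand. HNF4α was at 3 of its 4 co-bound peaks, and the window held 4 HNF4α peaks. The peaks with HNF4α lie in introns at 2154, 8809 and 10206 bp, with scores of 58.9, 92.4 and 31.6. In the promoter the co-bound peak at -179 bp and the HNF4α peak at -27 bp, with a score of 75.4, were centred 152 bp apart, and the HNF4α peak covered 16% of the co-bound peak. The HNF4α sequence shown above has a C/EBP match at -16 bp. The promoter was thus counted as having both kinds of peak but no co-bound peak with HNF4α, a call that depends on the limit of 50%.

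*Proc*, which encodes the anticoagulant protease protein C, lies on the reverse strand of its chromosome from 32282783 to 32299224. HNF4α was at 2 of its 4 co-bound peaks and at 3 of its 4 PROX1-only peaks, and the window held 7 HNF4α peaks. Its promoter peak, at -43 bp, was 73.5% covered by an HNF4α peak with a score of 97.1. That was the highest HNF4α score in any of the 10 promoters, above 95.5% of the list. The peak has 2 HNF4 matches, at -67 and -48 bp, each with 1 mismatch. Co-bound peaks at -5972 and 1351 bp were covered over 47.5% and 48%, just under the limit. The other 5 peaks were the 4 PROX1-only peaks and a distal co-bound peak, and 3 of them lie in introns of *Map3k2*, at -33.7, -32.4 and -30.4 kb, with scores of 30.2, 25 and 29.7. At *Proc* a strong promoter peak stood beside 6 HNF4α peaks whose scores ran from 25 to 42.9.

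Among the 46 HNF4α peaks of the 10 genes the score ran from 25 to 112.6, with a median of 44.05 against 41.9 in the whole list. Of these peaks, 10 were with neither HDAC3 nor PROX1, a share of 21.7% (95% Wilson interval 12.3 to 35.6) against 33.7% of the list. The interval includes the share of the list, and 5 of the 10 lie in the window of *F10*. The HNF4α peaks with neither had a median score of 40.3, and those with HDAC3 or PROX1 one of 46.9. In the whole list the medians were 33.5 and 48.1. At the 25 co-bound peaks with HNF4α, the median score was 58.9 against 52.3 at all such peaks, and the centres of the peaks lay a median of 12 bp apart (range 0 to 65) against 18 bp. In the promoters of *F7*, *F10* and *Serpinc1* the scores of peaks with neither reached 65, 63.6 and 75.4, so these peaks were not only low ones.

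**Figure D3:**
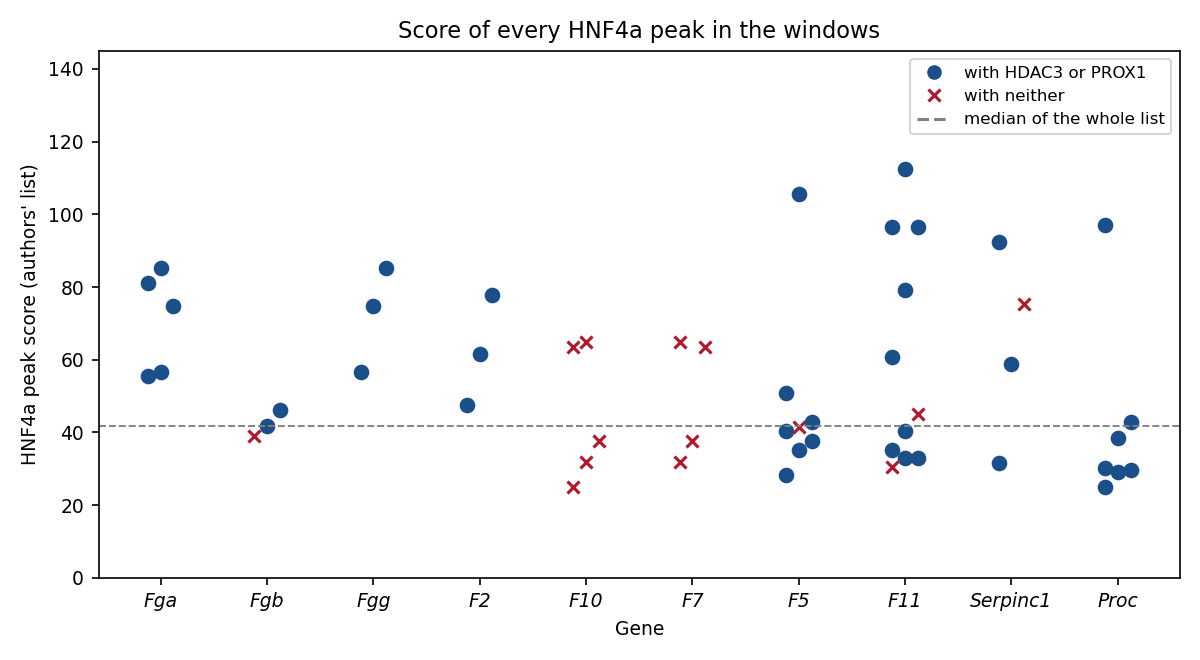
Score of every HNF4α peak in the window of each gene, as dots where an HDAC3 or PROX1 peak covered at least 50% of it and as crosses otherwise. The dashed line is the median of the whole list, 41.9, and a peak in several windows is drawn in each. All HNF4α peaks of *F7* and *F10* are crosses, and the highest dots, at 112.6 and 105.5, are those of *F11* and *F5*.

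Of the 15 co-bound peaks without HNF4α, 9 were not touched by an HNF4α peak and 6 were touched, 4 of them over 40 to 50% of their length. At *Fgg* (-4600 bp) and *Proc* (-5972 and 1351 bp) the HNF4α peak lay wholly within the co-bound peak. It was too narrow there to reach 50%. By position, 22 of the 40 co-bound peaks lay between genes, 17 in introns and 1 in a coding exon. A gene start was within 1 kb of 8 of them (20%), between 1 and 10 kb from 24 (60%) and further away from 8 (20%). Of all co-bound peaks, 5.92%, 24.6% and 69.4% lay in these classes, but the windows by their construction hold peaks near genes. HNF4α was at 5 of 8 (62.5%), 13 of 24 (54.2%) and 7 of 8 (87.5%) of them, against 54.4%, 60.3% and 62.3% of all co-bound peaks in these classes, with 95% Wilson intervals of 30.6 to 86.3, 35.1 to 72.1 and 52.9 to 97.8 for the 10 genes. For 33 of the 40 peaks the nearest gene start was that of one of the 10 genes. The 9 PROX1-only peaks were found at *F5*, *F11* and *Proc*, and 6 of them had HNF4α, a share of 66.7% (95% Wilson interval 35.4 to 87.9) against 36.7% of all 7384. This interval includes the share of all PROX1-only peaks.

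An HNF4 match was found in 14 of the 40 co-bound peaks, or 35% (95% Wilson interval 22.1 to 50.5), against 20.9% of all co-bound peaks of the same length. Among the peaks with HNF4α the share was 48% (12 of 25) against 28.4%, and among those without it was 13.3% (2 of 15) against 9.05%. The DR1 match was found in 35% (95% Wilson interval 22.1 to 50.5) against 25.3%, and the HNF1 match in 10% (3.96 to 23.1) against 4.71%. Both intervals include the share of all co-bound peaks. The C/EBP match was found in 40% (26.3 to 55.4) against 26.1%. A C/EBP match stood in 52% (13 of 25, 95% Wilson interval 33.5 to 70.0) of the co-bound peaks with HNF4α, against 27.5% in the whole list. Among those without HNF4α it was 20% (3 of 15, 7.05 to 45.2), against 23.9%. These 2 intervals overlap, and the second includes the share of the whole list. None of the 4 motifs was found in 10 of the 40 peaks, or 25% (95% Wilson interval 14.2 to 40.2), against 41.2% of all co-bound peaks. In HNF4α peaks with HDAC3 or PROX1, DR1 matched 19.4% (7 of 36) against 27.8% of the list, and HNF4 44.4% (16 of 36) against 29.6%. In HNF4α peaks with neither, DR1 matched 10% (1 of 10) against 27.8%, and HNF4 30% (3 of 10) against 38.2%. Each of these shares has a 95% Wilson interval that includes the share of the list. A match is a run of letters and not a measured site, and its absence says only that these letters are not in the peak.

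**Figure D4:**
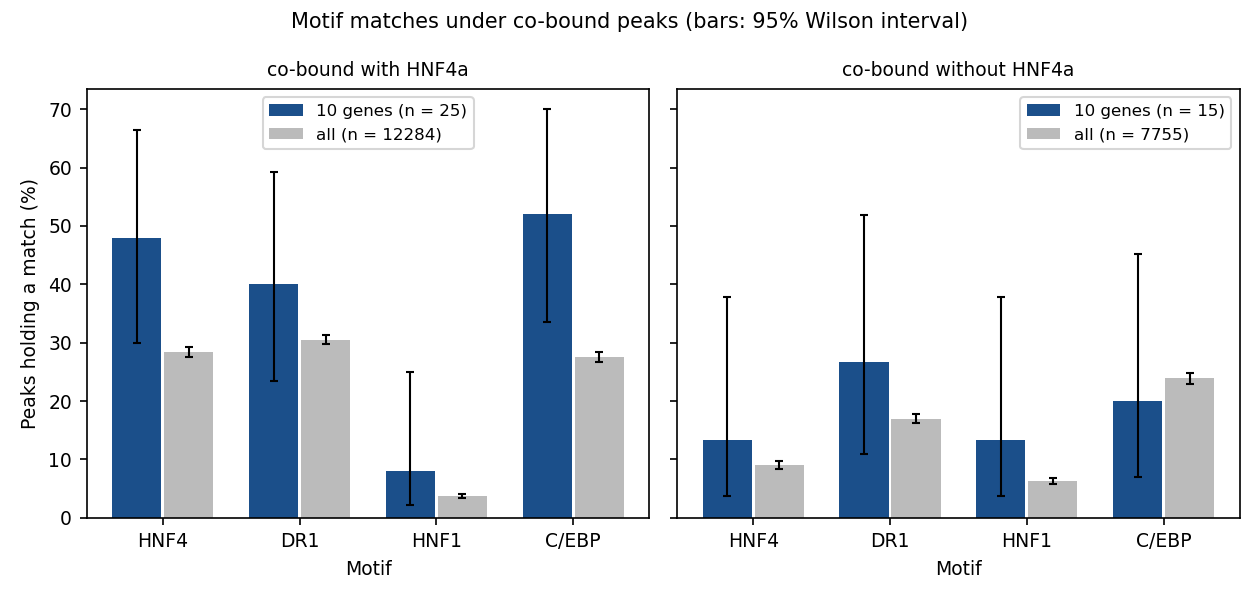
Percent of co-bound peaks that hold a match to each motif, with HNF4α (left) and without (right), for the 10 genes (blue) and all co-bound peaks (grey). Error bars are 95% Wilson intervals. The blue bars for HNF4 and C/EBP stand at 48% and 52% on the left and at 13.3% and 20% on the right.

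Other genes of the pathway were counted in the same way. Of 18 further genes listed as made in hepatocytes, all 18 had a co-bound peak and 16 had one with HNF4α, with medians of 4 and 2 per gene. Of all genes, 38.4% and 31.1% had such peaks. The listing was not checked against expression in mouse liver for any gene, *Serpina5* included. A co-bound peak was in the promoter of 14, against 5.05% of all genes, with HNF4α in 11, against 2.91%. An HNF4α peak of any kind was in the promoter of 14, against 9.38%. The most co-bound peaks with HNF4α were counted at *Serpina10*, which encodes the protein Z-dependent inhibitor and had 5. *Plg* (plasminogen), *Serpina5* (the protein C inhibitor) and *Serpinf2* (the inhibitor of plasmin) followed with 4 each. *Proz* and *Serping1*, the C1 inhibitor gene, had 4 and 2 co-bound peaks and none with HNF4α. *Proz* stands next to *F10*, and all 6 HNF4α peaks of its window were with neither HDAC3 nor PROX1. The group of *F7*, *F10* and *Proz* therefore shared peaks and the same pattern.

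Of 12 genes of coagulation and its receptors that are listed as made mainly in other cells, 5 had a co-bound peak and 3 had one with HNF4α. The shares of all genes were 38.4% and 31.1%. A co-bound peak was in the promoter of 0 of the 12, beside 5.05% of all genes, so a count of 0 lies near the background. *F3*, the tissue factor gene, had 4 co-bound peaks with HNF4α, the most of this list. *F8*, *F13a1*, *Plau* and *Thbd*, the genes of factor VIII, the factor XIII A chain, urokinase and thrombomodulin, had no peak of the 3 lists. The 10 genes and the 18 further genes listed for hepatocytes each had a median of 4 co-bound peaks per gene. The genes listed for other cells had a median of 0, as did all genes. Several of the genes are neighbours, such as *Kng1* and *Kng2*, *F11* and *Klkb1*, or *F10* and *Proz*, and are not independent.

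**Figure D5:**
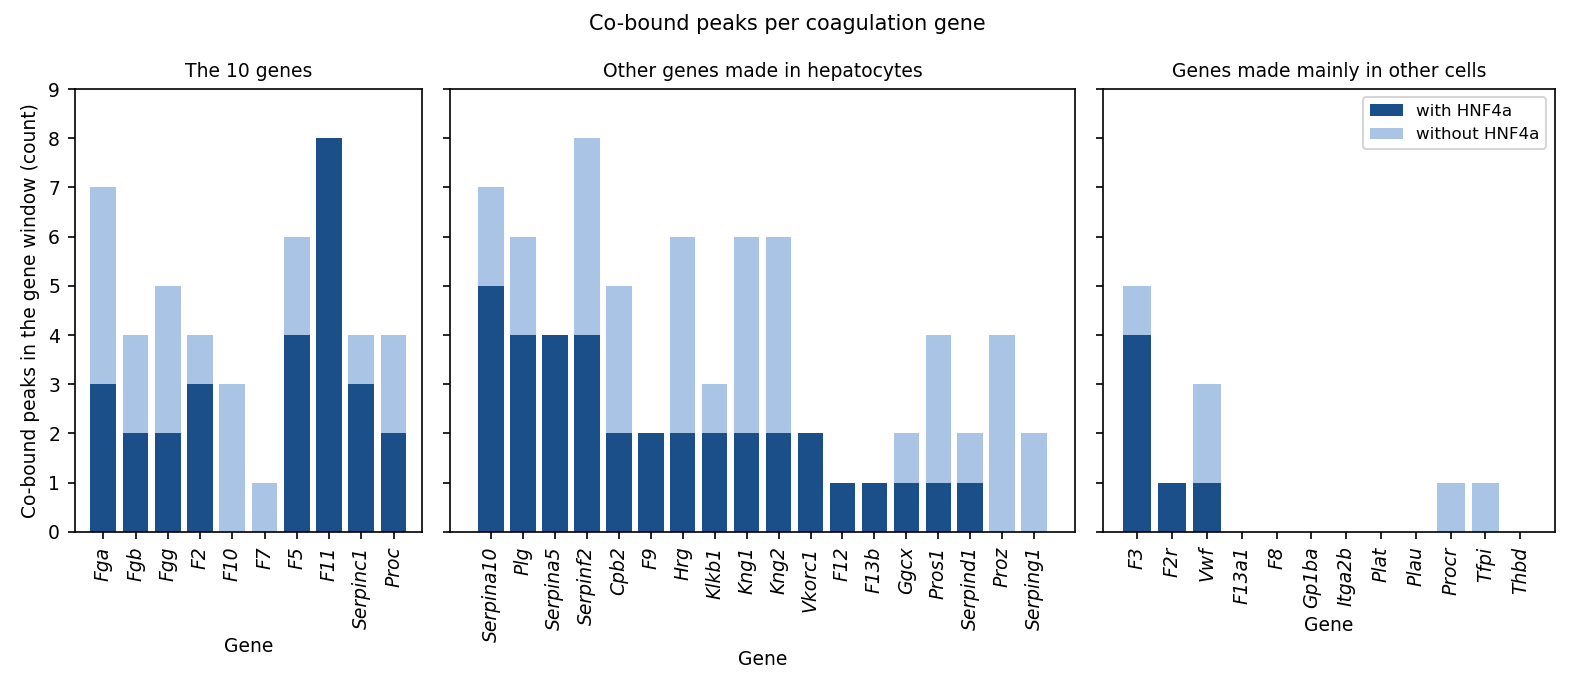
Number of co-bound peaks in the window of each gene, split into those with HNF4α (dark) and without (light). Shown are the 10 genes, 18 further coagulation genes listed as made in hepatocytes and 12 listed as made mainly in other cells. *F11* and *Serpinf2* reach 8 peaks, and 7 of the 12 genes of other cells have none.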

How the data were processed

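Alignment by the authors used Bowtie 0.12.7 and mm9. They removed duplicates, pooled the libraries of each factor and called peaks with HOMER against IgG. Peaks were kept by enrichment over IgG and by normalized read number, and by the paper the HNF4α peaks were also filtered on the *Hnf4α* knockout. They deposited 3 lists of peak positions, with 200 bp peaks for HDAC3 and PROX1 and narrower peaks for HNF4α (median 156 bp). The HNF4α list has a score, which the authors took from HOMER and whose scale is not given in the sources used here. Co-bound peaks have identical positions in the deposited lists, so the class is that of the authors. Positions are printed 1-based.

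Genes, TSS and locations were taken from GENCODE vM1 on NCBIM37, which is mm9, with 1 TSS per gene at the end of the gene record. Peaks were placed by their centres. Genes of like window length have windows from 59.2 to 120.4 kb. No test was run, since each list is pooled, and shares carry 95% Wilson intervals. Motifs were searched in the reference sequence under the peaks. The 10 genes, the pathway lists and the motifs were chosen with earlier results of these data known. All 10 genes are named. Of the other pathway genes, those with the most co-bound peaks with HNF4α, those with no peak and neighbours that share peaks are named. *Proz* and *Serping1* were named after their values were seen. One gene of the pathway lists is not reported here. Overlap and motif code was tested on simulated data. Python 3.11.15, numpy 2.4.6, pandas 2.3.3, scipy 1.17.1 and matplotlib 3.10.9 were used. RNA-seq, H3K27Ac and knockout libraries, part of the 34 of the series, were not analysed here.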

Additional observations from a re-analysis of the deposited data

How the results depend on the processing

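Of 33 recomputed values, 28 stayed within 1.5 times the reported count or within the interval of the reported share, and 5 moved further. The tally includes values that could not move. Leaving out *F7* and *F10* cannot change the count of co-bound peaks with HNF4α, since they have none. The DR1 motif alone is another motif than the HNF4 motif it was set beside. For the share of co-bound peaks with HNF4α, 3 alternatives moved and 5 did not. When an HNF4α peak had to cover 75% of a co-bound peak, 15 co-bound peaks with HNF4α were left, or 37.5%. When any overlap sufficed, the share was 77.5%. With only the HNF4α peaks that scored above the list median it was 42.5%. Without a mismatch, 10% of the co-bound peaks held the HNF4 motif. Under each of the 7 alternatives for which it was counted, 8 of the 10 genes had a co-bound peak with HNF4α, and *F7* and *F10* had none under the changed overlap and score limits, the 10 kb window and the nearest TSS. Taking 10 kb upstream gave 36 co-bound peaks, the nearest TSS within 100 kb gave 35, and merging peaks closer than 1 kb gave 34. By the nearest TSS, *F7* had 0 co-bound peaks. A promoter of 2 kb held a co-bound peak in 8 genes. Either of the HNF4 and DR1 motifs was found in 50% of the peaks (95% Wilson interval 35.2 to 64.8), against 39.2% of all co-bound peaks. The 2 alternatives on DR1 and the one leaving out *F7* and *F10*, which gave 67.6% of co-bound peaks with HNF4α, were chosen after seeing the data. No paired analysis was possible because the lists pool the livers. Pooled lists without read counts limit all values to counts of called peaks: no spread between animals, no depth and no binding strength of HDAC3 or PROX1 can be given, and a peak just under a limit is not listed.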
